A study of Mus musculus with 8 samples.

Results

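Fat cells need glycerol 3-phosphate as the backbone of new triglyceride, and glyceroneogenesis is the route that makes it from pyruvate and related precursors when glucose is scarce. The pyruvate dehydrogenase kinases, Pdk1 to Pdk4, phosphorylate the pyruvate dehydrogenase complex and switch it off, so that pyruvate is spared from oxidation and can be used for other purposes, glyceroneogenesis among them. Brown adipose tissue, which makes heat, burns and rebuilds triglyceride continually and expresses genes of both systems. Only transcripts are described here, not the activity of the enzymes. The genes described here were 9 of the 22552 in the mRNA table, taken by name: 5 of glyceroneogenesis and glycerol handling (Pck1, Pck2, Gpd1, Gpd2 and Aqp7) and the 4 Pdk genes. All 9 were in the table and none was listed at 0.

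The samples were brown fat from mice aged 2 months on a mixed 129SV, FVB/N and C57BL/6 background. Wild-type mice (WT) were mmu-mir-193b +/+ and Null mice were mmu-mir-193b -/-, which per the title of the study also lack miR-365-1. The line was bred from females that carried MMTV-Cre and 1 floxed miR-193b allele and from males with 1 floxed allele, and the transgene was removed by segregation. The labels list 3 WT and 3 Null mRNA libraries, but the authors gave 1 FPKM value per genotype, referred to as the WT pool and the Null pool. FPKM is the number of sequenced fragments scaled by transcript length and by the mapped fragments of the library. The pools have no replicate spread, so no difference below was tested, and the depth behind the values is unknown.

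In the microRNA table, with 1 library per genotype, miR-193b-3p was at 3705 RPM (the deposited name of the unit, whose scale is not known) in WT and 11.5 RPM in Null, which was 0.311% of WT. miR-365-3p, which is also made from a gene copy outside the deleted cluster, was at 1442 and 798 RPM. The mature sequences from RefSeq (GRCm38.p6) are given below, with the seed, bases 2 to 8, in capitals. miR-193a-3p, encoded elsewhere, shares the seed of miR-193b-3p and was at 3857 RPM in WT against 4067 RPM in Null.
miR-193b-3p: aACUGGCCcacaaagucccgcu
miR-193a-3p: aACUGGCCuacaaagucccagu
miR-365-3p: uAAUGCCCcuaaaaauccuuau

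The promoters of Pck1, Pdk4 and Pdk2 are shown because these genes made up nearly all transcripts of their families. RefSeq's promoter table (GRCm38.p6) held 8 of the 9 genes, all but Gpd1, with 12 start sites in all. Each sequence below is the 250 bases before the start, 5′ to 3′ on the gene's strand, and capitals mark every match to the motifs searched on both strands.
Pck1, chr2:173152823-173153072, plus strand: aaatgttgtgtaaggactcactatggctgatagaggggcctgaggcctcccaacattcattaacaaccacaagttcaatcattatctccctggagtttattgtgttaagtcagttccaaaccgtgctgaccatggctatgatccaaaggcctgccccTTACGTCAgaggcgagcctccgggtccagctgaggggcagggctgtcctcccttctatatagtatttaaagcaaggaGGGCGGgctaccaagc
Pdk4, chr6:5496279-5496528, minus strand: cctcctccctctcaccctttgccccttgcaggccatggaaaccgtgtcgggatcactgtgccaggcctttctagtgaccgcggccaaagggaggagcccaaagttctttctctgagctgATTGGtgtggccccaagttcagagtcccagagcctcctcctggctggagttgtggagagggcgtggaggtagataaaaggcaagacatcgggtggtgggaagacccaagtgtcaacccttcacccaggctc
Pdk2, chr11:95041372-95041621, minus strand: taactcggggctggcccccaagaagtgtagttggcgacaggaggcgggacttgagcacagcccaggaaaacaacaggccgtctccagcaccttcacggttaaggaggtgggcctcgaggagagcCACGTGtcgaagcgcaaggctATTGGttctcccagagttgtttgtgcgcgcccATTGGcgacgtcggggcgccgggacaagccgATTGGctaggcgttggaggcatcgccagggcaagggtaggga

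The Pck1 promoter held TTACGTCA, a form of the cAMP response element, starting 93 bases before the start site, and no other of the 12 windows held it. These letters were searched as the form known from Pck1, so the match there followed from the choice of letters and is not a finding. Of all 32851 promoter windows of this length, 0.447% held these letters. The palindromic form TGACGTCA was in none of the 12 windows and in 1.55% of all. The Pck1 window also held the GC box GGGCGG, which was in 5 of the 12 windows and in 32.7% of all.

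The Pdk4 window held 1 match to CCAAT, written as ATTGG on the other strand, and the Pdk2 window shown held 3, together with the E-box CACGTG. The second start of Pdk2, not shown, had neither. CCAAT was in 4 of the 12 windows and in 33.8% of all, and the E-box was in 1 of the 12 and in 6.02% of all. The hexamer AGGTCA, bound by nuclear receptors, was found in both windows of Aqp7 and in no other of the 12 windows, against 14.02% of all windows. The Aqp7 windows share 76 bases, so they are not independent. Copies of that hexamer as a direct repeat with 1 base between, the element of PPAR and RXR, were in none of the 12 windows and in 0.0335% of all. The forkhead site, searched as GTAAACA, was also in none of the 12, against 3.17% of all windows. The TATA box, searched as TATAAA, was likewise in none, against 12.4% of all windows.

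Transcripts of Gpd1 and Pck1, which encode cytosolic enzymes of glyceroneogenesis, were among the most abundant of brown fat. Gpd1, which reduces dihydroxyacetone phosphate to glycerol 3-phosphate in the cytosol, had the highest level of the 9 genes at 3615 FPKM in WT against 2296 FPKM in Null. It ranked 7 among all genes in the WT pool and 32 in the Null pool. Pck1, the cytosolic phosphoenolpyruvate carboxykinase that commits oxaloacetate to the pathway, was at 1157 FPKM in WT against 1263 FPKM in Null, at ranks 51 and 59. Gpd1 was thus 3.12 times as abundant as Pck1 in WT and 1.82 times in Null.

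Pdk4, the kinase known to be induced by fasting and fatty acids, was the next in order at 748 FPKM in WT against 641 FPKM in Null, at ranks 94 and 139. Gpd2, the mitochondrial dehydrogenase that turns glycerol 3-phosphate back and passes the electrons to the respiratory chain, was at 303 and 183 FPKM. Pdk2, the kinase present in most tissues, was at 171 and 122 FPKM. Aqp7, the channel through which fat cells release glycerol, was at 82.0 and 103 FPKM.

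Pdk1, a kinase known as a target of the hypoxia response, was at 44.4 FPKM in WT against 35.1 FPKM in Null. Pck2, the mitochondrial carboxykinase, was at 5.09 and 7.74 FPKM, and Pdk3 was at 0.861 and 1.08 FPKM. The order of the 9 levels was the same in both pools. The closest neighbours in the order were Pck1 and Pdk4 in WT, 1.55-fold apart, and Pdk2 and Aqp7 in Null, 1.19-fold apart, and without replicates it is not known whether such neighbours differ beyond their spread.

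**Figure D1:**
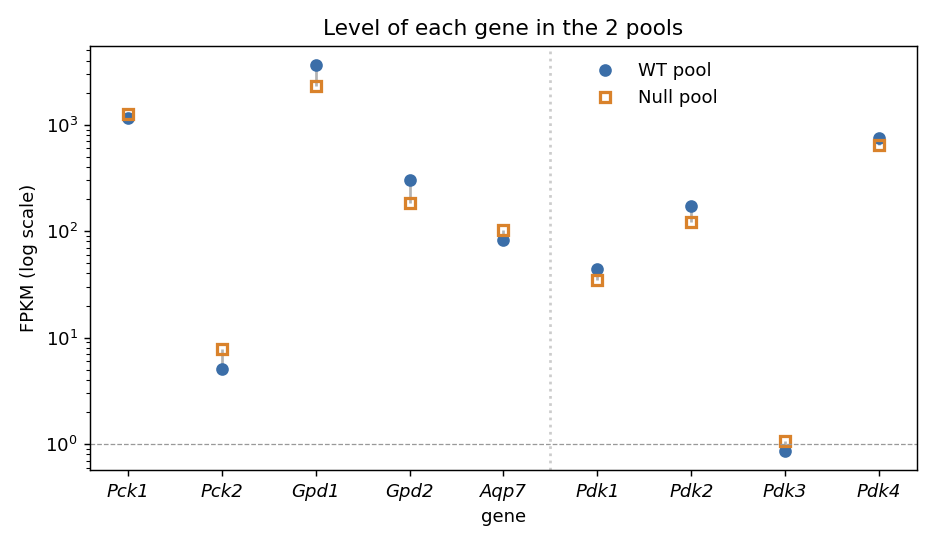
Level of the 9 genes in FPKM on a log axis, with filled circles for the WT pool and open squares for the Null pool, joined by a grey line, and a dashed line at 1 FPKM. The genes span from under 1 FPKM (Pdk3 in WT) to 3615 FPKM (Gpd1 in WT), and their order is the same in both pools.

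Among the Pdk genes, the carboxykinases and the pair of Gpd1 and Gpd2, 1 gene of each group held most of the transcripts, in both pools. Pdk4 made up 77.6% of the summed FPKM of the 4 kinases in WT and 80.2% in Null, Pdk2 17.7% and 15.3%, Pdk1 4.61% and 4.39%, and Pdk3 0.0893% and 0.135%. The shift toward Pdk4 was 2.65 percentage points on the deposited scale. There the family sum was 964 FPKM in WT against 800 FPKM in Null, a ratio of 0.829. After quantile normalization Pdk4 held 78.8% in WT and 79.8% in Null, a smaller shift.

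Without Pdk4, the kinase sum was 216 FPKM in WT against 158 FPKM in Null, and Pdk2 held 79.1% and 77.1% of it. Pdk4 was 4.37 times as abundant as Pdk2 in WT and 5.26 times in Null, and 16.8 and 18.3 times as abundant as Pdk1.

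Pck1 made up 99.6% of the carboxykinase transcripts in WT and 99.4% in Null, 227 and 163 times the level of Pck2. Gpd1 made up 92.3% and 92.6% of the Gpd1 and Gpd2 sum, or 11.9 and 12.5 times the level of Gpd2. The sum of Gpd1 and Gpd2 was 3918 FPKM in WT against 2479 FPKM in Null, so that it differed between pools while the shares moved by 0.349 percentage points. After quantile normalization Gpd1 held 93.0% in WT and 91.8% in Null, so the direction of this small shift depends on scaling.

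**Figure D2:**
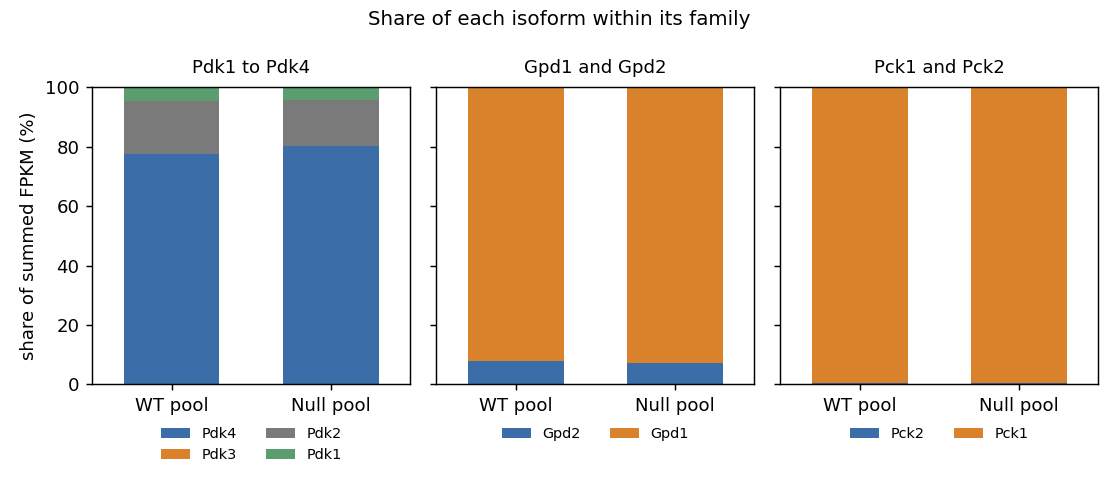
Share of each gene in the summed FPKM of its group (Pdk1 to Pdk4, Gpd1 and Gpd2, Pck1 and Pck2), in percent, for the WT pool and the Null pool. Pdk4, Gpd1 and Pck1 fill most of each bar in both pools, with Pdk4 at 77.6% and 80.2%; Pdk3 and Pck2 are too small to be seen.

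Differences between pools are given as log2((Null + 1)/(WT + 1)) of FPKM, where negative values are lower in Null and the added 1 FPKM shrinks the difference of low genes. A difference of 1.5-fold on this scale was counted. Only genes averaging 1 FPKM or more over the pools were counted, which held for 8 of the 9, all but Pdk3. Of these 8, the Null pool was lower by 1.5-fold for 2 and higher by that much for none. Of all 11597 genes so counted 6.75% were lower and 7.87% higher by that much, 14.6% in either direction. At 2-fold 0 of the 8 genes were counted, against 1.65% of all genes lower, 2.17% higher and 3.82% in either direction. By any amount, 5 of the 8 genes were lower, against 49.4% of all. The median log2 ratio was -0.28 for the 8 genes and 0.01 for all.

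The genes lower by 1.5-fold were Gpd1 and Gpd2, which both encode glycerol 3-phosphate dehydrogenases. Gpd2 had a log2 ratio of -0.72, 39.6% below WT in FPKM, and Gpd1 had -0.65, 36.5% below WT. Among the 11597 genes these ratios stood at percentiles 3.95 and 5.15. Most of the abundant genes were not lower: of the 73 genes averaging 1000 FPKM or more, 41.1% were higher in Null by 1.5-fold and 3 were lower. Those 3 were Gpd1, Agpat2 (1856 and 1126 FPKM), which acylates lysophosphatidic acid in triglyceride synthesis, and Acly (1969 and 1139 FPKM), which makes cytosolic acetyl-CoA; the last was looked up after its values were seen.

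The carboxykinases were not lower on the deposited scale. Pck1 had a log2 ratio of 0.13 and Pck2 of 0.52. In FPKM without the added 1, Pck2 was 1.52 times its WT level. The glycerol channel Aqp7 had a ratio of 0.32, or 25.2% above WT. The ratio of Pck1 to Gpd1 transcripts was thus 0.320 in WT and 0.550 in Null.

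All 3 kinases that averaged 1 FPKM or more were lower in Null, but none by 1.5-fold. Pdk2 had a log2 ratio of -0.48, Pdk1 of -0.33 and Pdk4 of -0.22, which were 28.7%, 21.0% and 14.3% below WT in FPKM. Their ratios stood at percentiles 10.05, 18.1 and 26.7 among the 11597 genes, inside the range where many genes lay. Pdk3, near the limit of 1 FPKM in both pools, had a ratio of 0.16.

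**Figure D3:**
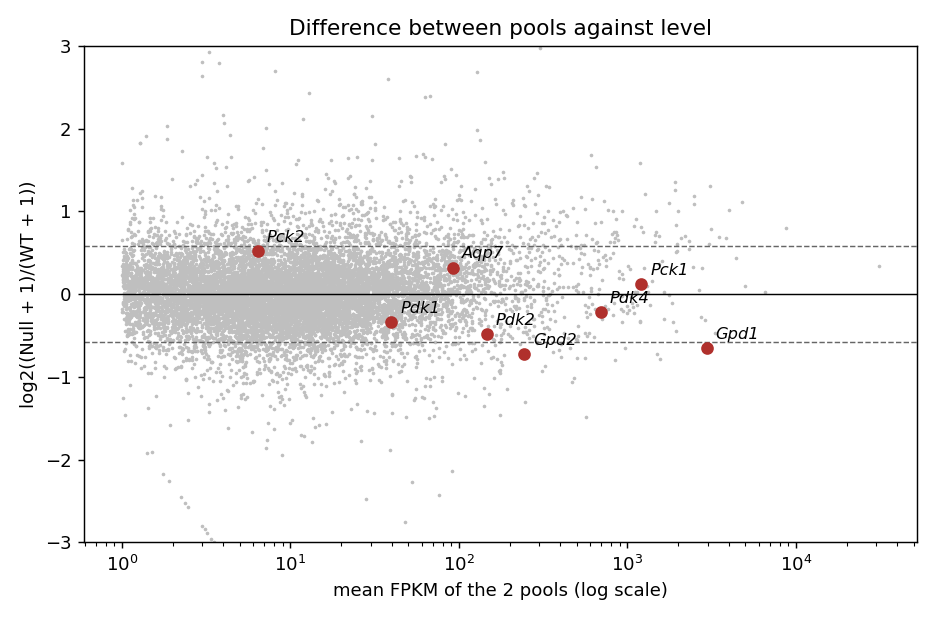
Log2 ratio of Null to WT against mean FPKM on a log axis, with grey points for the genes of at least 1 FPKM and red points for the 8 genes named; dashed lines mark 1.5-fold, and 66 genes lie outside the vertical range. Gpd1 and Gpd2 lie below the lower dashed line, and the other 6 lie between the lines.

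The WT column adds up to 508701 FPKM and the Null column to 590327 FPKM, 1.16 times as much, so the directions of small differences depend on scaling. With both columns set to the same sum, the median of all genes was -0.18 and the share of genes lower by 1.5-fold was 13.96%, against 4.05% higher. Pck1 then had a ratio of -0.088, or 0.092 relative to that median, and with quantile normalization it had -0.14, so its direction is not settled. Pdk2 was lower by more than 1.5-fold in both of these settings, at -0.70 (-0.52 relative to the shifted median) and -0.63. Gpd1 ranged from -1.16 to -0.65 and Gpd2 from -0.94 to -0.71 over all 8 settings, and the remaining genes kept their sign.

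**Figure D4:**
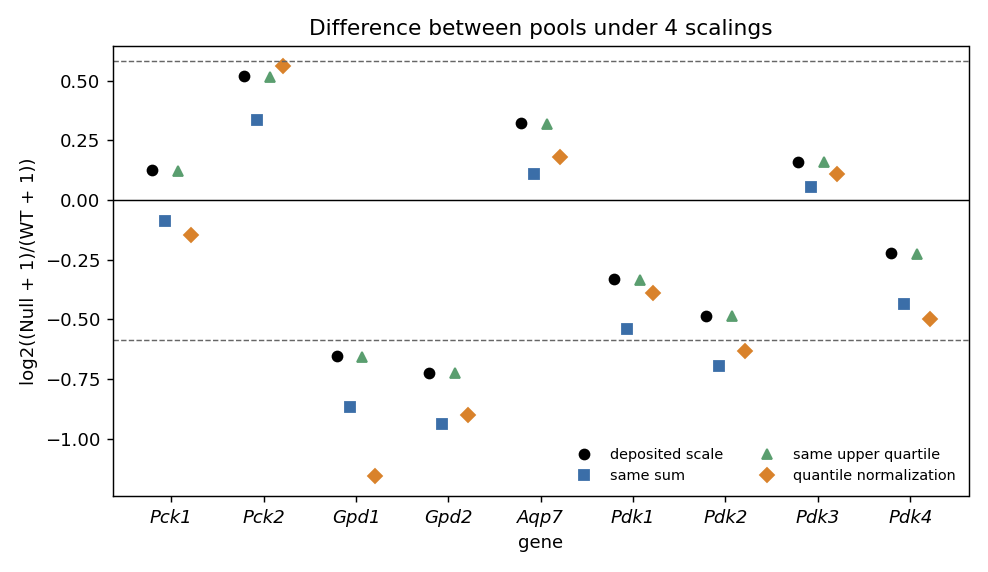
Log2 ratio of Null to WT for the 9 genes on the deposited scale (circles), with the column sums set equal (squares), with the upper quartiles set equal (triangles) and after quantile normalization (diamonds); dashed lines mark 1.5-fold. Pck1 changes sign between scalings, and Gpd1 and Gpd2 lie below the lower line in all 4.

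The pyruvate dehydrogenase complex, the target of the kinases, was abundant. All 5 of its core genes were lower in Null, none of them by 1.5-fold. Over all genes 49.4% were lower by any amount and 6.75% by 1.5-fold. The 5 core genes, Pdha1, Pdhb, Dlat, Dld and Pdhx, summed to 3156 FPKM in WT against 2547 FPKM in Null, a ratio of 0.807, and their log2 ratios lay between -0.43 and -0.22. Pdha1, which encodes the subunit that the kinases phosphorylate, was at 1331 and 1060 FPKM. The kinase sum was 0.725 times the level of Pdha1 in WT and 0.754 times in Null.

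The phosphatases that undo the kinases' work were far less abundant. Pdp2, the form known from liver and fat, was at 16.6 FPKM in WT against 8.52 FPKM in Null (log2 ratio -0.88), and Pdp1 was at 2.98 and 4.21 FPKM (0.39). The kinase sum was 49.3 times the phosphatase sum in WT and 62.8 times in Null. Pdpr, the regulatory subunit of the phosphatase, had the lowest ratio of the list, at 24.8 and 7.67 FPKM (-1.57).

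Over the list of the complex, its phosphatases, lipoylation and pyruvate entry, all 14 genes averaged 1 FPKM or more, 11 were lower and 3 higher, and 2 were lower by 1.5-fold (Pdp2 and Pdpr). Of all genes 49.4% were lower by any amount and 6.75% by 1.5-fold. The median was -0.27, against 0.01 for all. The highest ratio was that of Lipt2, which transfers the octanoyl precursor of lipoic acid, at 4.97 and 7.82 FPKM (0.56). The mitochondrial pyruvate carrier subunits, listed under the older symbols Brp44l (Mpc1) and Brp44 (Mpc2), were at 172 and 143 FPKM and at 660 and 744 FPKM.

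Several enzymes around glyceroneogenesis were measured at high levels. Pcx, the pyruvate carboxylase that makes oxaloacetate, was at 286 FPKM in WT against 208 FPKM in Null (-0.45). The malate dehydrogenases Mdh1 (670 and 671 FPKM) and Mdh2 (1110 and 1032 FPKM) differed little. Gyk, the glycerol kinase that can make glycerol 3-phosphate directly, was at 19.0 and 15.3 FPKM, so that Pck1 was 61.0 times as abundant in WT and 82.7 times in Null. Aqp7 was 4.32 and 6.72 times as abundant as Gyk. The other glycerol channels Aqp3 and Aqp9 were under 0.1 FPKM in both pools.

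Of the 24 genes of glycerol 3-phosphate supply and use 21 averaged 1 FPKM or more, of which 17 were lower and 4 higher, and 5 were lower by 1.5-fold. Over all genes these shares were 49.4% lower by any amount and 6.75% by 1.5-fold. The median was -0.37. The 5 were Gpam, the mitochondrial acyltransferase that takes glycerol 3-phosphate into triglyceride (98.5 and 34.2 FPKM, -1.499), Lpin1, a phosphatidate phosphatase (166 and 81.4 FPKM, -1.02), Agpat2 (-0.72), the aspartate and glutamate carrier Slc25a12 (6.86 and 3.86 FPKM, -0.69) and the dicarboxylate carrier Slc25a10 (25.2 and 15.6 FPKM, -0.66). The highest ratio was that of Agpat1, at 0.06. Gpd1l, a relative of Gpd1, was at 13.3 FPKM in both pools.

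Several of these genes are known targets of PPAR, FoxO and glucocorticoid receptors, which are known inducers of Pdk4 and regulators of Pck1. Of 28 regulators averaging 1 FPKM or more 19 were lower and 9 higher, with a median of -0.08. Over all genes 49.4% were lower by any amount, 6.75% lower by 1.5-fold and 7.87% higher by 1.5-fold. None of the regulators was higher by 1.5-fold, and 3 of the 28 were lower by that much. They were the forkhead factor Foxo3 (3.22 and 1.28 FPKM, -0.89), the fatty acid receptor Ppara (71.9 and 41.2 FPKM, -0.79) and its partner Rxra (22.0 and 13.1 FPKM, -0.71). The orphan receptor Nr2f2 had the highest ratio (3.998 and 6.11 FPKM, 0.51). Hnf4a, which drives Pck1 in liver, was listed at 0 in both pools.

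The targets of these factors were counted in the same way, against 49.4% lower by any amount, 6.75% lower by 1.5-fold and 7.87% higher by 1.5-fold over all genes. Of 23 PPAR targets averaging 1 FPKM or more 8 were higher and 15 lower, with a median of -0.16; Angptl4, an inhibitor of lipoprotein lipase, was higher by 1.5-fold (219 and 419 FPKM, 0.93), and Fgf21 (1.72 and 0.551 FPKM, -0.81), the lipid droplet protein Plin2 (708 and 415 FPKM, -0.77) and the peroxisomal enzyme Ehhadh (44.2 and 28.3 FPKM, -0.62) were lower. Of 16 FoxO targets 7 were higher and 9 lower, with a median of -0.06. The cell cycle inhibitor Cdkn1b (0.70) and Cited2 (0.64) were higher by 1.5-fold and the ubiquitin ligase Trim63 (-0.68) lower.

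Of 12 glucocorticoid targets 5 were higher and 7 lower, with a median of -0.17. Over the 9 targets averaging 5 FPKM or more it was -0.40, against 0.005 for all genes so filtered. With both column sums set equal it was -0.36 for the 12 targets, and the medians of all genes (-0.18) and of the other lists were lower too. On the deposited scale 4 of the 12 targets were lower by 1.5-fold and 0 higher. Those lower by 1.5-fold were Zbtb16 (11.4 and 3.22 FPKM, -1.56), the clock gene Per1 (-0.75), the kinase Sgk1 (-0.66) and Klf9 (-0.60), and the metallothionein Mt1 had the highest ratio (401 and 595 FPKM, 0.57).

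**Figure D5:**
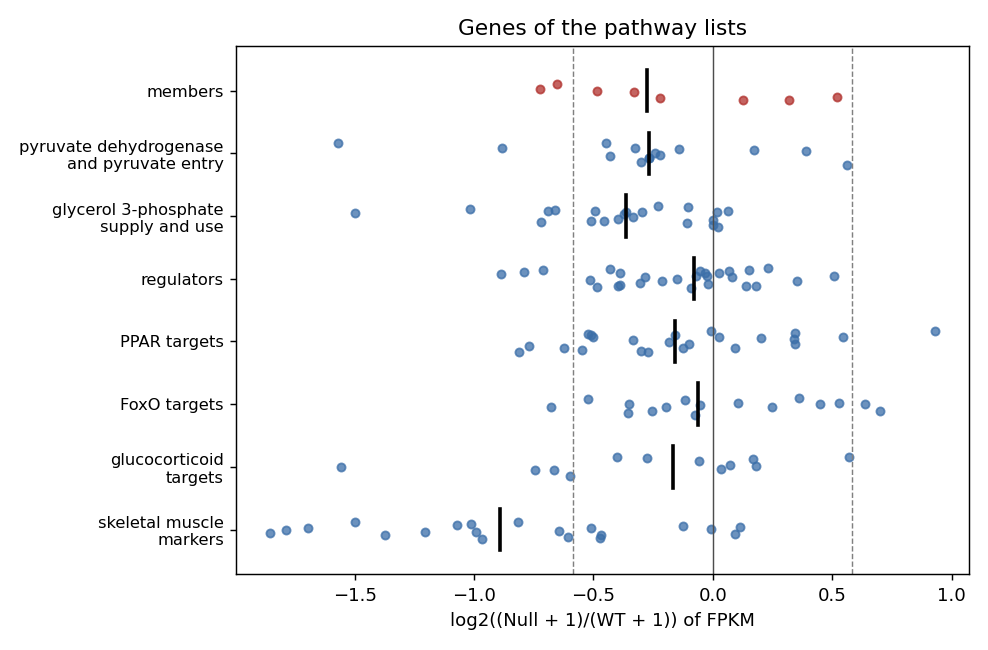
Log2 ratio of Null to WT for each gene averaging 1 FPKM or more (points) of the members, of 6 pathway lists and of skeletal muscle markers, with black bars for the medians and dashed lines at 1.5-fold. The medians of the members, of the pyruvate dehydrogenase list and of the glycerol 3-phosphate list lie between -0.37 and -0.27, and that of the muscle markers lies at -0.89.

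By level and ratio in 1 measure, over only the 2 pools, the 3 genes nearest to Pdk4 were Pdhb, a subunit of the pyruvate dehydrogenase complex (778 and 631 FPKM, 0.06 away on the log2 scale), Echs1, an enzyme of fatty acid oxidation (768 and 694 FPKM, 0.12 away), and G0s2, an inhibitor of lipolysis (686 and 605 FPKM, 0.15 away). Those nearest to Pck1 were Hp, which encodes haptoglobin (1108 and 1183 FPKM, 0.11 away), Hadh (1127 and 1151 FPKM, 0.14 away) and Ifi27l1 (1124 and 1400 FPKM, 0.15 away). With 1 value per genotype this likeness says little beyond abundance.

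Markers of brown fat cells were present in both pools, among them Ucp1 (3016 and 2487 FPKM) and Cidea (2615 and 2717 FPKM). Of 10 markers of brown fat cells 4 were higher and 6 lower, with a median of -0.14. By 1.5-fold 2 were higher, Cox7a1 (1.02) and Cox8b (0.80), and 2 lower, Elovl3 (-2.27) and Dio2 (-0.97). Among all genes counted, 49.4% were lower by any amount, 6.75% were lower by 1.5-fold and 7.87% were higher by 1.5-fold. Of 10 markers of all fat cells 7 were higher and 3 lower, with a median of 0.27. In bulk tissue, fewer cells of a type and less RNA per cell cannot be told apart. Skeletal muscle, which also expresses Pdk2, Pdk4, Gpd1 and Gpd2, was represented in both pools: 18 of 20 muscle markers were lower in Null, 13 by 1.5-fold, none was at 0, and their summed level was 4787 FPKM in WT against 3408 FPKM in Null. Their part in the lower Gpd and Pdk values was not tested.

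Pck1 is also abundant in liver, kidney and gut, and markers of these tissues were near 0. The 7 hepatocyte markers summed to 0.964 FPKM in WT against 2.77 FPKM in Null, with Tat at 0 in both. The 7 kidney tubule markers summed to 0.0612 and 0.169 FPKM, with Slc34a1, Umod, Slc22a6 and Miox at 0 in both. The 6 enterocyte markers summed to 0.609 and 0.340 FPKM, with Fabp2, Alpi, Sis and Fabp1 at 0 in both. No list of white fat markers was used, so admixed white fat was not examined. Macrophage markers summed to 105 FPKM in WT against 157 FPKM in Null, with 7 of 9 higher. Endothelial markers summed to 215 and 273 FPKM, with 6 of 7 higher. Of all 11597 genes counted, 5867 were higher and 5730 lower by any amount. The next lists were drawn up after values were known and differ in function as well as in length. Of 77 ribosomal protein genes, known for short mRNAs, 63 averaged 1 FPKM or more, and 59 of these were higher in Null (median 0.88). Of the general genes known for long mRNAs, 20 of 20 were lower (median -0.47). No mRNA length was measured. The lengths of the 9 genes' mRNAs were not used here, and the part of length in their ratios was not tested.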

How the data were processed

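Brown fat of WT and Null mice was profiled by mRNA-seq (3 libraries per genotype) and microRNA-seq (1 library per genotype), grouped by the labelled genotype. The mRNA libraries used poly(A) RNA, per the labels' protocols. Per the submitters' processing notes, the build was mm9 and the tools were BWA, TopHat, CASAVA, DESeq and edgeR, with no role, version or annotation stated. The authors deposited FPKM in 1 column for WT and 1 for Null, per the file headers, and whether libraries were pooled or averaged is not stated. The microRNA values that the authors deposited as RPM add up to more than RPM allows, and were used as a signal on an unknown scale. Depth is unknown for both.

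From these values, log2 ratios with a pseudocount of 1 FPKM, counts past 1.5-fold, shares of each gene in its group and list medians were computed with Python 3.11.15 and pandas 2.3.3 over the 11597 genes that averaged 1 FPKM or more. With 1 value per genotype, no model over libraries could be fitted. The text names all 9 genes and, of each pathway list, the genes past 1.5-fold and those with the extreme ratios, and the 3 genes nearest to Pck1 and to Pdk4. Members and lists were chosen with earlier results of these data known. Symbols matched the table for all genes of the pathway lists, including older symbols for Mpc1 and Mpc2. The lists of ribosomal protein genes and of long mRNAs (20 of 22 in the table) were added after the values were known. Alternatives were another pseudocount (0.1 or 5 FPKM), filter (none or a mean of 5 FPKM), scaling and fold (2-fold).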

Additional observations from a re-analysis of the deposited data

How the results depend on the processing

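No paired analysis was possible because the table holds 1 column per genotype and no replicate numbers, and for the same reason no replicate could be left out. Centring on genes of like protein length, and shares weighted by protein length, were not run, since no protein table was used here. With a pseudocount of 0.1 FPKM, Pck2 had a log2 ratio of 0.59, past 1.5-fold, so 1 of the 8 genes was higher by that much instead of 0. With both sums set equal, Pck1 had a ratio of -0.088 and Pdk2 of -0.70. With quantile normalization they had -0.14 and -0.63. With a threshold of 2-fold, 0 of the 8 genes were lower, against 1.65% of all genes counted. Requiring a mean of 5 FPKM turned the median of the FoxO targets to 0.11, over the 11 genes left. Leaving Pdk4 out of the family raised the share of Pdk2 to 79.1% in WT and 77.1% in Null and that of Pdk1 to 20.5% and 22.2%, by construction. The other 130 values compared kept their direction and their side of 1.5-fold, or, for shares, stayed within 5 percentage points and, for counts, within 1.5 times. The causes of these changes were not tested. The depth is unknown, so the counting error of low genes such as Pdk3 and Pck2 is unknown too.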
